A study of Mus musculus with 12 samples.

Results

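The tricarboxylic acid (TCA) cycle runs in the mitochondrial matrix, where its enzymes oxidise acetyl-CoA from pyruvate, fatty acids and amino acids, hand electrons to the respiratory chain and supply citrate, 2-oxoglutarate and oxaloacetate for biosynthesis. In T cells the cycle is known to be used more heavily on activation and growth, and regulatory T cells (Tregs), the Foxp3-dependent CD4 T cells that restrain immune responses, are known for relying on mitochondrial oxidation. Glutathione is the main thiol that buffers reactive oxygen species produced beside this oxidation, and several cycle enzymes are sensitive to oxidation.

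The transcripts described are those of 9 cycle enzymes or enzyme subunits, chosen by symbol from 49671 genes in the count files. They are Cs, which joins acetyl-CoA to oxaloacetate to make citrate, and Idh2, the NADP-dependent mitochondrial isocitrate dehydrogenase. Idh3a, Idh3b and Idh3g encode the catalytic and the other subunits of the NAD-dependent isocitrate dehydrogenase IDH3. Ogdh encodes the decarboxylating component of the 2-oxoglutarate dehydrogenase complex and Suclg1 the subunit of succinyl-CoA ligase shared by its ATP and GTP forms. Fh1 encodes fumarate hydratase, and Mdh2 encodes mitochondrial malate dehydrogenase, which closes the cycle. All 9 were abundant enough to be among the 17977 genes tested.

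RNA was sequenced from 4 groups of mouse Tregs with 3 libraries each, 12 in all, from C57BL/6 mice aged 8 weeks. Freshly isolated Tregs (nTregs) came from Gclc mutant or wild-type (WT) mice. Induced Tregs (iTregs), which were differentiated in vitro starting with naive CD4 T cells, likewise came from Gclc mutant or WT mice. The protein made from Gclc is the catalytic part of glutamate-cysteine ligase, the enzyme of the first step of glutathione synthesis. The labels name neither the allele nor any Cre driver. Nor do they say that libraries came from different mice or cultures, so p-values measure the spread between these libraries, which may be technical.

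Total counts per library ran from 28707579 to 39886130. Gclc was at 43.6 ± 2.08 CPM (counts scaled to library size, with library sizes adjusted by TMM) in mutant nTregs and at 76.2 ± 4.64 CPM in WT nTregs (SD, n = 3 each). It was at 19.6 ± 1.24 CPM in mutant iTregs and at 53.9 ± 2.38 CPM in WT iTregs. Foxp3 was present in every library and lower in the mutants without overlap, at 135 to 217 CPM in mutant nTregs and 559 to 610 CPM in WT nTregs, and at 75.5 to 107 CPM in mutant iTregs and 287 to 300 CPM in WT iTregs. One library stood apart: mutant nTreg replicate 1 differed from the other 2 mutant nTreg libraries by 43.3 and 50.8 times the counting noise (chi-square per degree of freedom), against 11.9 between those 2. Summed over 10 markers of CD8 T cells and NK cells, the level was 1630 CPM in that library, 176 and 197 CPM in the other mutant nTregs and 65.1 to 74.5 CPM in WT nTregs. In bulk RNA of this kind a change in the share of cells of a type and a change in RNA per cell cannot be told apart.

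On the GRCm38 assembly, as the count files give the exons, Cs lies on chromosome 10 from 128337832 to 128362479 (plus strand), Fh1 on chromosome 1 from 175600374 to 175625635 (minus strand) and Ogdh on chromosome 11 from 6291633 to 6356642 (plus strand). Idh2 lies on chromosome 7 from 80094846 to 80115392 (minus), Idh3a on chromosome 9 from 54586334 to 54604661 (plus), Idh3b on chromosome 2 from 130279309 to 130284547 (minus) and Idh3g on chromosome X from 73778963 to 73786897 (minus). Suclg1 lies on chromosome 6 from 73248382 to 73276911 (plus) and Mdh2 on chromosome 5 from 135778480 to 135790398 (plus). Cs and Fh1 are examples of the members that differed between groups, and Ogdh is an example of those that did not. The 250 bases before their RefSeq starts (GRCm38.p6) are shown with CCAAT in capitals, or ATTGG where it reads on the other strand. CCAAT is the core bound by the factor NF-Y. The windows are chr10:128337477-128337726 (plus strand), chr1:175625636-175625885 (minus strand) and, for the first of 6 Ogdh starts, chr11:6291347-6291596 (plus strand).
Cs: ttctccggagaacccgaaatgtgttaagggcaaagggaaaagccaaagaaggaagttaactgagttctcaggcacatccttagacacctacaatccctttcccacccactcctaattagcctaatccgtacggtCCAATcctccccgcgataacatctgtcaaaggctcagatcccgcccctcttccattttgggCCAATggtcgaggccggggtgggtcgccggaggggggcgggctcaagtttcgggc
Fh1: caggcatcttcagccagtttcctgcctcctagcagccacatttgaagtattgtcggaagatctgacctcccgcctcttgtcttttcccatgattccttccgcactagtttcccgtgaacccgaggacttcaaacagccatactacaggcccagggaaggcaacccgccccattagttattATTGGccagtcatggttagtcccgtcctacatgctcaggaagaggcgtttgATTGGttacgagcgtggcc
Ogdh: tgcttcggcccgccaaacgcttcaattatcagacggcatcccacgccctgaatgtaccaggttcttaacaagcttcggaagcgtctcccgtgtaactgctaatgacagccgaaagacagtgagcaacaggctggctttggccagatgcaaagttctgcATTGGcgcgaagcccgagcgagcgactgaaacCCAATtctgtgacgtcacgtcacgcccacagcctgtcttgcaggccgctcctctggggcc
Each of the 3 windows holds 2 copies. Among the other members with a window, those of Idh2 and Idh3b held 1 copy, and those of Mdh2, Idh3g and Suclg1 held 0. Of the 9 members, 8 matched RefSeq windows of this length (Idh3a did not), and CCAAT was read on either strand in windows of 5 of the 8 genes, namely Cs, Fh1, Idh2, Idh3b and Ogdh. Counted by window, with 6 for Ogdh, it was read in 8 of 13 member windows. This count repeats matches, since the Ogdh windows starting at 6291347, 6291356 and 6291409 overlap and hold the same 2 copies. Over all genes it was read in 33.8% of 32851 windows of the same length. The Sp core GGGCGG was read in windows of Cs, Fh1, Idh2, Mdh2 and Ogdh (6 of 13 member windows, 32.7% of all windows). The antioxidant response core TGACNNNGC was read in that of Idh3g alone (1 of 13, 10.2% of all windows). The E-box CACGTG was read in Ogdh windows alone (3 of 13, 6.02% of all windows), and those starting at 6292308 and 6292329 overlap and share 1 match. No member window held the NRF1 core (3.74%), the ERR core AAGGTCA (4.08%) or the C/EBP-ATF core TGATGNAAT (0.816%). These are letter matches in a fixed window. CCAAT was read both in members that differed between groups and in members that did not.

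Compared per exon length, as TPM (a level: reads per exon base, as a share of the library), Cs was the most abundant member in every group and its libraries overlapped with no other member in any group. Cs averaged 132 ± 17.6 TPM in mutant nTregs and 102 ± 3.57 TPM in WT nTregs, and 126 ± 3.11 TPM in mutant iTregs and 123 ± 4.16 TPM in WT iTregs. Mdh2 came next in mutant nTregs at 65.7 ± 7.85 TPM, whereas in WT nTregs it was at 49.0 ± 1.85 TPM, within the spread of its neighbours Idh3b and Idh3g, and below Ogdh at 53.9 ± 1.33 TPM. In both iTreg groups Mdh2 again stood second, at 52.4 ± 5.52 TPM in the mutant and 54.9 ± 1.08 TPM in WT. At the low end, Idh2 was last in nTregs, at 16.4 ± 3.68 TPM in the mutant and 10.4 ± 0.54 TPM in WT. Its range overlapped that of Suclg1 in mutant nTregs and lay below it in WT nTregs. In iTregs Suclg1 was last, at 14.9 ± 0.94 TPM in the mutant and 13.6 ± 0.16 TPM in WT, with Idh2 above it at 20.3 ± 1.29 and 20.7 ± 1.38 TPM. Fh1 and Idh3a lay between these ends in all groups, and their libraries overlapped each other in every group but mutant iTregs. Summed over the 9 members, the level was 452 ± 37.5 TPM in mutant nTregs and 372 ± 9.43 TPM in WT nTregs, and 398 ± 12.5 TPM in mutant iTregs and 391 ± 9.59 TPM in WT iTregs. A sum in TPM also moves with every other transcript of the library.

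**Figure D1:**
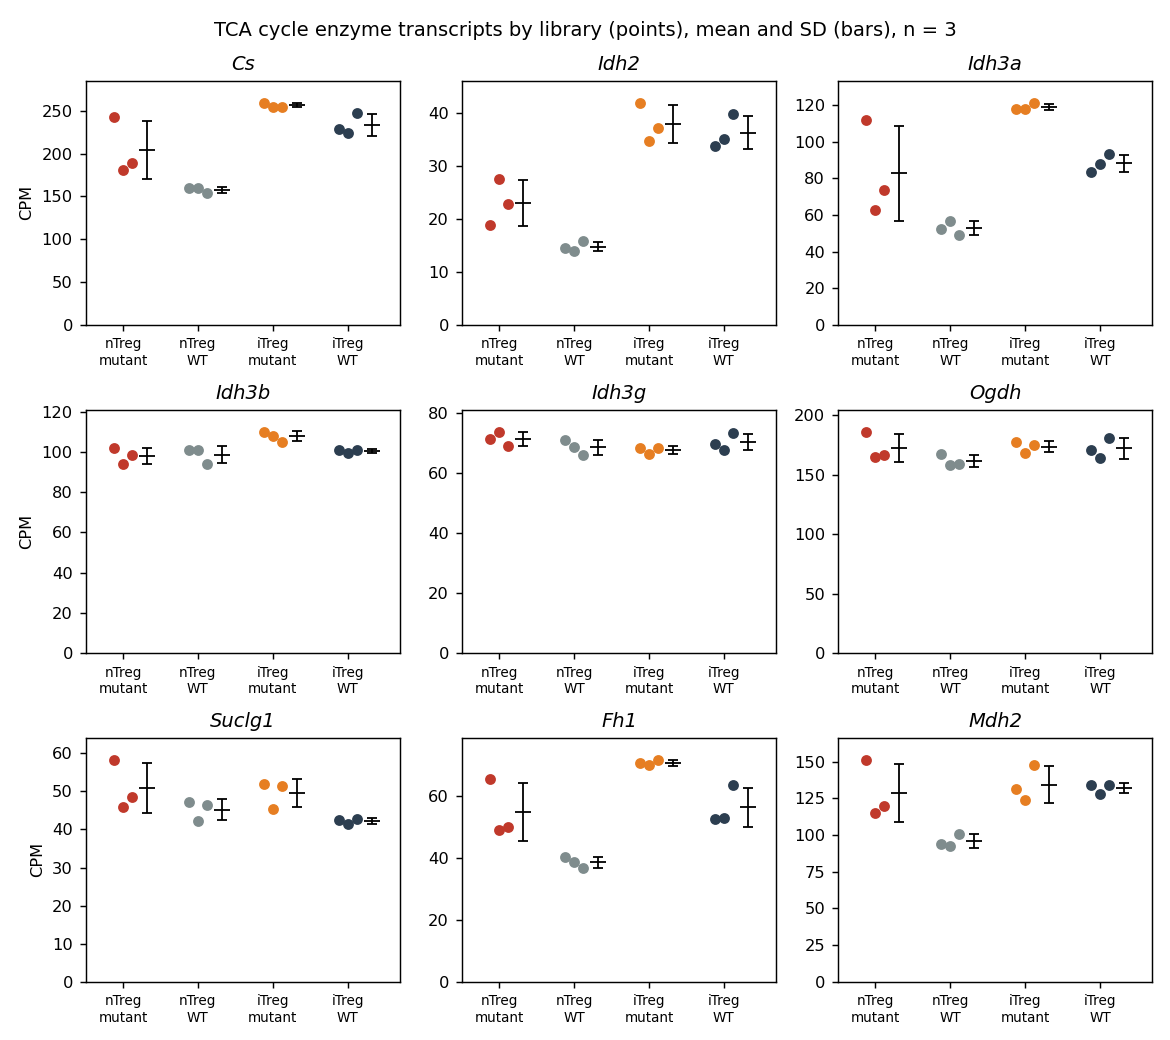
Level of each of the 9 transcripts in CPM (vertical axis, starting at 0) in each library of mutant nTregs, WT nTregs, mutant iTregs and WT iTregs; points are libraries, and the bar beside them is the mean with its SD (n = 3). For Cs, Idh2, Idh3a, Fh1 and Mdh2 all mutant nTreg points lie above all WT nTreg points, while Idh3b, Idh3g, Ogdh and Suclg1 overlap.

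Mutant nTregs set against WT nTregs show what went with the mutation in Tregs from the animal. Transcripts of 5 of the 9 enzymes were higher in mutant nTregs and 0 were lower: Cs, Idh2, Idh3a, Fh1 and Mdh2 rose by 1.29-fold to 1.57-fold. The other 4, Idh3b, Idh3g, Ogdh and Suclg1, did not pass the test. Over all tested genes 19.3% were higher and 15.6% lower, 34.9% in all, by the same rule (edgeR quasi-likelihood test, Benjamini-Hochberg adjusted p below 0.05 over 17977 genes). The members' median log2 fold change was 0.37, against 0.04 for all tested genes. In the 5 that rose every mutant library lay above every WT library, as it did for 25.7% of all tested genes (22.6% lay below).

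At the entry of the cycle, Cs was at 243, 181 and 189 CPM in mutant nTregs (replicates 1, 2 and 4), against 160, 160 and 154 CPM in WT nTregs (replicates 1, 2 and 3). The highest value was that of mutant replicate 1, and the groups did not overlap. The log2 fold change was 0.37 ± 0.09 (SE, n = 3 against 3, edgeR adjusted p = 0.0102). The related gene Csl, citrate synthase-like, to which reads could also align, was at 5.12 to 10.5 CPM over the 12 libraries.

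At the isocitrate step the members differed. Idh2 was at 18.8, 27.5 and 22.8 CPM in mutant nTregs, against 14.5, 14.0 and 15.8 CPM in WT nTregs, and here mutant replicate 1 was the lowest of the mutant libraries. It rose by 0.65 ± 0.13 on the log2 scale (edgeR adjusted p = 0.00265). Idh3a, the catalytic subunit of IDH3, was at 112, 62.5 and 73.5 CPM in mutant nTregs, against 52.3, 56.7 and 49.1 CPM in WT nTregs. The groups did not overlap, but the mutant libraries spread widely, with replicate 1 far above the other 2. Idh3a rose by 0.65 ± 0.16 (edgeR adjusted p = 0.00817). The partner subunits stayed within narrow ranges. Idh3b was at 93.9 to 102 CPM in mutant nTregs and 93.7 to 101 CPM in WT nTregs, a log2 fold change of -0.01 with a 95% interval of -0.14 to 0.11. Idh3g was at 69.1 to 73.9 CPM in mutant nTregs and 66.0 to 71.2 CPM in WT nTregs, a log2 fold change of 0.06 with an interval of -0.07 to 0.19. Both pairs of groups overlapped, and these intervals leave out a change as large as that fitted for Idh3a.

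In the middle of the cycle neither member passed the test. Ogdh was at 186, 165 and 166 CPM in mutant nTregs, against 167, 158 and 159 CPM in WT nTregs, with a log2 fold change of 0.09 (interval -0.05 to 0.24, edgeR adjusted p = 0.28). Suclg1 was at 58.2, 45.8 and 48.6 CPM in mutant nTregs, against 47.1, 42.1 and 46.4 CPM in WT nTregs, with a log2 fold change of 0.17 (interval -0.03 to 0.37, edgeR adjusted p = 0.17). In both, mutant replicate 1 was the highest library and the others overlapped with WT.

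The last steps rose together. Fh1 was at 65.6, 49.0 and 50.1 CPM in mutant nTregs, against 40.4, 38.7 and 36.8 CPM in WT nTregs. Mdh2 was at 151, 115 and 120 CPM in mutant nTregs, against 93.8, 92.6 and 101 CPM in WT nTregs. Neither gene overlapped between groups, and mutant replicate 1 was again the highest. The log2 fold change was 0.51 ± 0.11 for Fh1 (edgeR adjusted p = 0.00428) and 0.42 ± 0.10 for Mdh2 (edgeR adjusted p = 0.00635).

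Without mutant nTreg replicate 1, the same 5 members passed, with smaller values for 4 of them: Cs 0.20 ± 0.06, Idh3a 0.34 ± 0.08, Fh1 0.33 ± 0.08 and Mdh2 0.26 ± 0.07 on the log2 scale (edgeR adjusted p = 0.0205, 0.00702, 0.0078 and 0.0178). Idh2 was then at 0.75 ± 0.11 (adjusted p = 0.000395). Other measures moved with genotype in nTregs. The summed level of 15 proliferation genes was 3820 CPM in mutant replicate 1, 2240 and 2260 CPM in the other mutant nTregs and 802 to 1080 CPM in WT nTregs, and all 15 were higher by the test. Of the 10 markers of CD8 T cells and NK cells 9 passed as higher, with the sums given above and none at 0, and Cd8a was at 19.1 to 219 CPM in mutant nTregs and 3.7 to 6.36 CPM in WT nTregs. Of 7 Treg and CD4 markers 2 were lower, with sums of 2380 to 2990 CPM in mutant nTregs and 3300 to 3630 CPM in WT nTregs. For B cell, myeloid and erythroid markers, 5 genes each, 0 passed the test in either direction (1, 1 and 3 at an unadjusted p under 0.05). Their summed levels were 168 to 365, 18.7 to 45.7 and 178 to 879 CPM in mutant nTregs, and 249 to 395, 33.1 to 34.2 and 111 to 388 CPM in WT nTregs. The part of these measures in the enzyme values was not tested.

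**Figure D2:**
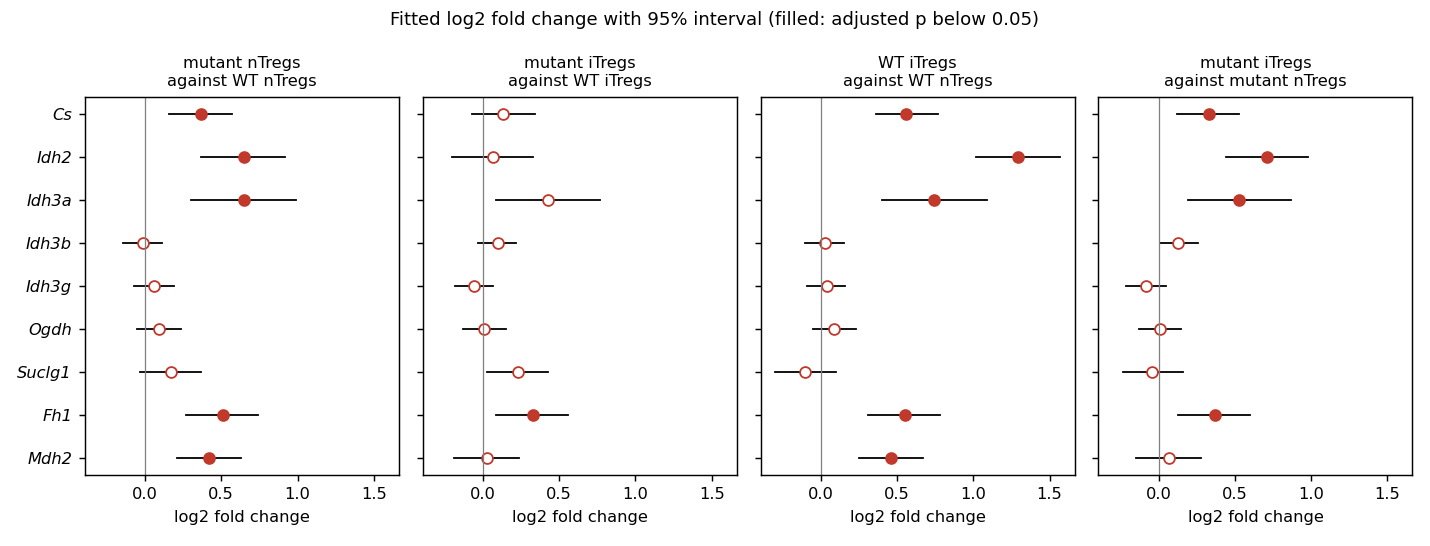
Fitted log2 fold change of each member (points, horizontal axis) with its 95% interval (lines) in 4 comparisons; filled points passed the test (edgeR adjusted p below 0.05). Idh3b, Idh3g, Ogdh and Suclg1 are open in all 4 panels, while Fh1 is filled in all 4 and Cs, Idh2 and Idh3a in 3.

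In iTregs, which were differentiated outside the animal, the mutation went with a rise of 1 member, Fh1, and a fall of 0. By the same test 14% of all genes were higher in mutant iTregs and 11.4% lower, 25.4% in all, and the members' median log2 fold change was 0.10, against 0.04 for all tested genes. Fh1 was at 70.6, 69.9 and 71.6 CPM in mutant iTregs (replicates 1, 2 and 4), against 52.6, 52.9 and 63.7 CPM in WT iTregs (replicates 1, 2 and 3). WT replicate 3 was the highest WT library and still below every mutant library. The log2 fold change was 0.33 ± 0.11 (edgeR adjusted p = 0.0436). This call lies close to the threshold: it was lost in 8 of 12 fits that each left out 1 library, in all 3 without a mutant iTreg library, all 3 without a WT nTreg library, and those without WT iTreg replicate 1 or 2 (adjusted p = 0.0562 to 0.16). It was also lost where libraries were scaled by size only (0.24, adjusted p = 0.0868) and with a filter of 1 CPM (0.28, adjusted p = 0.0567).

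Other members of mutant iTregs shifted without passing. Idh3a was at 118, 118 and 121 CPM in mutant iTregs, against 83.7, 87.9 and 93.1 CPM in WT iTregs. The groups lay well apart, and the log2 fold change was 0.43 ± 0.16 (edgeR adjusted p = 0.0605). Its spread was estimated over all 4 groups, among them the wide mutant nTreg libraries. With the 6 iTreg libraries fitted alone, Idh3a passed at 0.39 ± 0.06 (adjusted p = 0.00214). It also passed at 0.42 ± 0.07 without mutant nTreg replicate 1 (adjusted p = 0.00084), where Fh1 and Suclg1 passed too (adjusted p = 0.00433 and 0.0223).

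Suclg1 was at 52.0, 45.4 and 51.3 CPM in mutant iTregs, against 42.5, 41.4 and 42.8 CPM in WT iTregs (log2 fold change 0.23 ± 0.09, edgeR adjusted p = 0.0804). Cs was at 259, 255 and 255 CPM in mutant iTregs, against 229, 224 and 248 CPM in WT iTregs (log2 fold change 0.13 ± 0.09, edgeR adjusted p = 0.324). For these 2 genes and for Idh3a, Idh3b and Fh1, every mutant iTreg library lay above every WT iTreg library, as it did for 26.8% of all tested genes (19.7% lay below). The remaining members, Idh2, Mdh2, Ogdh and Idh3g, overlapped. Idh2 was at 41.8, 34.7 and 37.1 CPM in mutant iTregs, against 33.8, 35.1 and 39.7 CPM in WT iTregs, with a log2 fold change of 0.07 (interval -0.20 to 0.33). Mdh2 was at 131, 124 and 148 CPM in mutant iTregs, against 134, 128 and 134 CPM in WT iTregs, with a log2 fold change of 0.03 (interval -0.19 to 0.24). Ogdh, Idh3b and Idh3g had log2 fold changes of 0.01, 0.10 and -0.06, and the Ogdh and Mdh2 values turned below 0 with scaling by library size alone.

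Markers of B cells and erythroid cells were low in iTregs. The 10 markers of CD8 T cells and NK cells summed to 59.0 to 89.3 CPM in mutant iTregs and 37.9 to 56.9 CPM in WT iTregs, without overlap. In WT nTregs the sum was 65.1 to 74.5 CPM. Gzmb was at 19.6 to 33.7 CPM in mutant iTregs and 2.42 to 9.65 CPM in WT iTregs. Nkg7, Klrd1 and Eomes overlapped between these groups, and Gzma and Gzmk were at 0 in both. Of the 10 markers 0 passed the test (1 at an unadjusted p under 0.05). Its spread was estimated over all 4 groups, among them mutant nTreg replicate 1. The B cell markers summed to at most 3.68 CPM and the erythroid markers to at most 0.11 CPM in any iTreg library. Of the 15 proliferation genes 7 were higher in mutant iTregs, with sums of 5430 to 6540 CPM, against 3550 to 5050 CPM in WT iTregs. With 1 library left out this count ran from 0 (without WT iTreg replicate 1 or 2; 1 without mutant iTreg replicate 1 or 2; 3 to 4 without WT nTreg replicate 1 or 2) to 12 (without mutant nTreg replicate 1). Of 7 Treg and CD4 markers 1 was higher and 1 lower, with sums of 2510 to 2720 CPM in mutant iTregs and 2370 to 2570 CPM in WT iTregs, and of 5 myeloid markers 1 was lower, with sums of 2.09 to 3.94 CPM in mutant iTregs and 6.57 to 8.56 CPM in WT iTregs. Their part in the enzyme values was not tested.

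Whether the genotype effect differed between iTregs and nTregs was tested in the same fit as the effect in iTregs minus that in nTregs. In that fit it differed for Idh2 alone among the 9 members, by -0.58 ± 0.18 on the log2 scale (interval -0.96 to -0.20, edgeR adjusted p = 0.0482), and no member passed the other way. Over all tested genes 7.18% were lower and 6.12% higher by this test, 13.3% in all. The 3 mutant nTreg libraries of Idh2 were all above WT nTregs, whereas the mutant and WT iTreg libraries overlapped. The call was lost in 11 of 12 fits that each left out 1 library (adjusted p = 0.0555 to 0.113) and held without mutant nTreg replicate 1 (-0.69 ± 0.14, adjusted p = 0.00738). It was also lost with RLE scaling (adjusted p = 0.0552). Mdh2 had the next largest difference, at -0.40 ± 0.14 (edgeR adjusted p = 0.0767). It passed with DESeq2 (-0.39, adjusted p = 0.0257), with a 1 CPM filter (-0.44, edgeR adjusted p = 0.0409) and with library size alone (-0.53, edgeR adjusted p = 0.0193). It did not pass with RLE scaling or a replicate block. Without mutant iTreg replicate 4 Mdh2 passed (-0.47, edgeR adjusted p = 0.0421) and Idh2 did not (edgeR adjusted p = 0.0709). For Cs, Idh3a and Fh1 the differences were -0.24, -0.22 and -0.18 with intervals that include 0, so a rise in nTregs that was smaller or not called in iTregs is not shown to differ for them.

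The WT libraries give the levels of the enzymes in the 2 kinds of Treg without the mutation. In WT iTregs the same list of 5, Cs, Idh2, Idh3a, Fh1 and Mdh2, was higher than in WT nTregs, and 0 members were lower. By this test 33.7% of all genes were higher and 35.7% lower, 69.5% in all, and the members' median log2 fold change was 0.46, against -0.02 for all tested genes. This comparison shares its WT nTreg libraries with that of mutant and WT nTregs, so the 2 lists are not independent of each other.

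Idh2 differed most, with 33.8 to 39.7 CPM in WT iTregs and 14.0 to 15.8 CPM in WT nTregs, a 2.45-fold rise (log2 fold change 1.29 ± 0.13, edgeR adjusted p = 1.88e-06). Idh3a was at 83.7 to 93.1 CPM in WT iTregs and 49.1 to 56.7 CPM in WT nTregs, 1.67-fold higher (edgeR adjusted p = 0.00106). Cs was 1.48-fold higher (224 to 248 CPM in WT iTregs, 154 to 160 CPM in WT nTregs). For these 3 genes, and for Fh1 and Mdh2, every WT iTreg library lay above every WT nTreg library. The same held for 37.9% of all tested genes (39.9% lay below). Fh1 was 1.46-fold higher (52.6 to 63.7 CPM in WT iTregs, 36.8 to 40.4 CPM in WT nTregs) and Mdh2 was 1.38-fold higher (128 to 134 CPM in WT iTregs, 92.6 to 101 CPM in WT nTregs). The edgeR adjusted p was 0.00017 for Cs, 0.000642 for Fh1 and 0.00104 for Mdh2. Idh3b, Idh3g, Ogdh and Suclg1 did not pass, with log2 fold changes of 0.03, 0.04, 0.09 and -0.10, and the signs of Idh3b and Idh3g turned with scaling by library size alone. All 15 proliferation genes were higher in WT iTregs, with the sums given above. All 5 B cell and all 5 erythroid markers were lower, 4 myeloid markers were lower and 1 higher, 5 of 7 Treg and CD4 markers were lower and 1 higher, and of the 10 markers of CD8 T cells and NK cells 1 was lower. Their part in the enzyme values was not tested.

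Side by side, the log2 fold changes were 0.65 in mutant against WT nTregs and 1.29 in WT iTregs against WT nTregs for Idh2, 0.65 and 0.74 for Idh3a, 0.51 and 0.55 for Fh1, 0.42 and 0.46 for Mdh2, and 0.37 and 0.56 for Cs. As the plot of levels by library shows, Mdh2 in mutant nTregs was at 115 and 120 CPM in replicates 2 and 4, below both iTreg groups (124 to 148 CPM in the mutant and 128 to 134 CPM in WT), and at 151 CPM, above both, in replicate 1, the library that stood apart. Idh2 in mutant nTregs (18.8 to 27.5 CPM) stayed below every iTreg library.

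Between the mutant groups, 4 members were higher in mutant iTregs than in mutant nTregs and 0 were lower, where 33.2% of all genes were higher and 35% lower, 68.2% in all. Idh2 rose by 0.71 ± 0.12 on the log2 scale (edgeR adjusted p = 0.000244), Idh3a by 0.53 ± 0.16 (adjusted p = 0.00948), Fh1 by 0.37 ± 0.11 (adjusted p = 0.00905) and Cs by 0.33 ± 0.09 (adjusted p = 0.0079). In CPM, every mutant iTreg library lay above every mutant nTreg library for these 4 and Idh3b, as it did for 33.6% of all tested genes. For Idh3g every one lay below, as it did for 35.2%. On the TPM scale the groups overlapped for all 4. The Cs mean was there 132 ± 17.6 TPM in mutant nTregs and 126 ± 3.11 TPM in mutant iTregs. The Fh1 mean was also slightly lower in mutant iTregs, whereas those of Idh2 and Idh3a were higher. The sum over the 9 members was 452 ± 37.5 TPM in mutant nTregs and 398 ± 12.5 TPM in mutant iTregs. The scales thus differ in direction for Cs and Fh1. Mdh2 did not pass (0.07, interval -0.15 to 0.28), nor did Idh3b (0.13), Idh3g (-0.08), Ogdh (0.01) or Suclg1 (-0.04). In this comparison scaling by library size alone moved the median of all genes to -0.20, against -0.02 with TMM. Under it 2 members, Idh2 and Idh3a, passed as higher and 3, Idh3g, Ogdh and Suclg1, as lower. Without mutant nTreg replicate 1, Idh3b and Mdh2 passed as well (0.17 and 0.20). Of the 15 proliferation genes 14 were higher in mutant iTregs. Of the 10 markers of CD8 T cells and NK cells 8 were lower, as were all 5 B cell, 5 myeloid and 5 erythroid markers, and of 7 Treg and CD4 markers 4 were lower and 1 higher. Their part in the enzyme values was not tested.

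The subunits of IDH3 assemble with 2 catalytic alpha subunits beside 1 beta and 1 gamma, and ratios of their transcripts are described here. They draw on the same counts of Idh3a, Idh3b and Idh3g as above, so they are not separate evidence. The ratio of Idh3a to Idh3b, on the TPM scale, was 0.741, 0.449 and 0.505 in mutant nTregs, against 0.348, 0.378 and 0.354 in WT nTregs. It was 0.728, 0.737 and 0.778 in mutant iTregs, against 0.559, 0.596 and 0.62 in WT iTregs. Every mutant library lay above every WT library of its kind. The highest mutant nTreg ratio, 0.741, was that of replicate 1, the library that stood apart. The exact permutation test gave p = 0.1, two-sided, in each kind of Treg, the smallest it can give with 3 libraries against 3. Over the 20 tests made of 5 ratios in 4 comparisons, the adjusted p was 0.133.

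Idh3a to Idh3g ran likewise, at 0.616 ± 0.196 in mutant nTregs and 0.409 ± 0.026 in WT nTregs, and at 0.936 ± 0.016 in mutant iTregs and 0.668 ± 0.027 in WT iTregs (exact permutation p = 0.1 in both). The ratio of the 2 partner subunits, Idh3b to Idh3g, moved less. It was 1.08 ± 0.07 in mutant nTregs and 1.14 ± 0.02 in WT nTregs (exact permutation p = 0.3), and 1.25 ± 0.04 in mutant iTregs and 1.13 ± 0.03 in WT iTregs (exact permutation p = 0.1). Of the 2 isocitrate dehydrogenases, the ratio of Idh2 to Idh3a was 0.623 ± 0.060 in mutant iTregs and 0.803 ± 0.028 in WT iTregs, without overlap. In mutant nTregs this ratio ranged from 0.329 in replicate 1 to 0.864 in replicate 2 and covered the WT nTreg range of 0.483 to 0.631. At the start of the cycle the ratio of Cs to Ogdh was 2.28 ± 0.22 in mutant nTregs and 1.89 ± 0.05 in WT nTregs, and 2.86 ± 0.06 in mutant iTregs and 2.62 ± 0.03 in WT iTregs (exact permutation p = 0.1 in both).

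**Figure D3:**
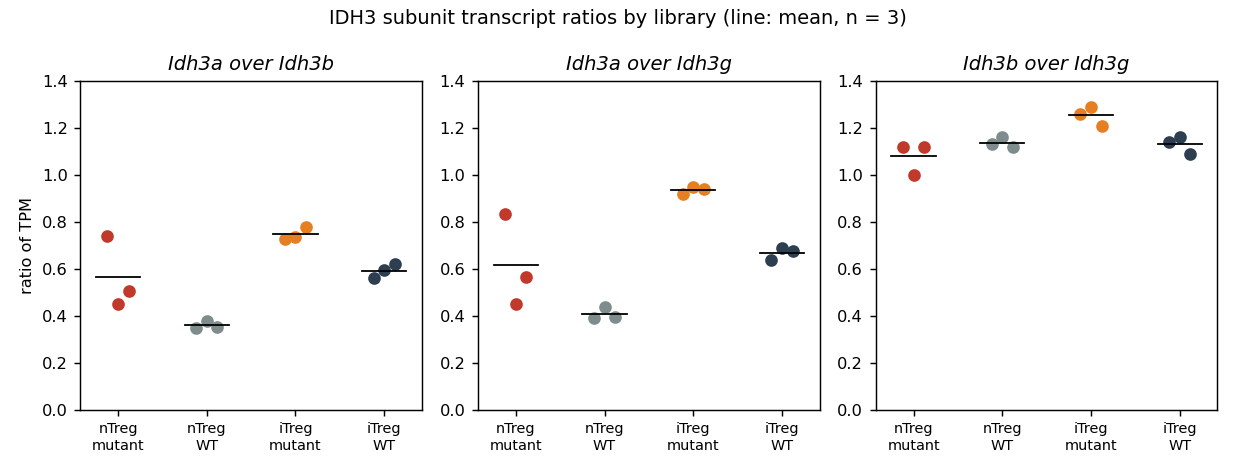
Ratios of IDH3 subunit transcripts on the TPM scale (vertical axis, starting at 0) in each library of mutant nTregs, WT nTregs, mutant iTregs and WT iTregs; points are libraries and lines are means (n = 3). Idh3a over Idh3b lies between 0.449 and 0.741 in mutant nTregs and between 0.348 and 0.378 in WT nTregs, while Idh3b over Idh3g lies between 1.0 and 1.29 in all libraries.

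Over the 12 libraries, log2 CPM of Cs, Idh3a and Fh1 ran close together (Pearson r = 0.98 for Cs with Idh3a, 0.98 for Idh3a with Fh1 and 0.97 for Cs with Fh1). Mdh2 followed them at 0.88 to 0.90 and Idh2 at 0.75 to 0.84 with the first 3. Of the members that did not pass by genotype in nTregs, Ogdh was at 0.73 to 0.78 and Idh3b at 0.69 to 0.75 with the first 3, Suclg1 was at 0.28 to 0.42 and Idh3g at -0.08 to 0.05. These are descriptions over 4 groups that share libraries, depth and the group differences above. The 5 tested genes outside the list closest to the members' mean pattern (Pearson r over 12 libraries) were Zbtb32 (0.994), Ybx3 (0.993), Txn1 (0.993), Dlgap5 (0.992) and Lsm2 (0.992). Zbtb32, for example, averaged 22.6 CPM in mutant nTregs and 7.25 CPM in WT nTregs, and 53.8 CPM in mutant iTregs and 29.3 CPM in WT iTregs.

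Other genes around the cycle were counted in lists of neighbouring functions, chosen with earlier results of these data known. For comparison with the counts of all lists, 19.3% of all tested genes were higher and 15.6% lower in mutant nTregs. In mutant iTregs 14% were higher and 11.4% lower. In mutant against WT iTregs their counts depended much on single libraries, and the range with 1 library left out is given with each. Of 9 other subunits of cycle enzymes, 3 rose in mutant nTregs and 0 fell, all from succinate dehydrogenase, the enzyme that is also complex II of the respiratory chain. Sdhb was at 62.3 ± 12.7 CPM in mutant nTregs and 44.6 ± 1.47 CPM in WT nTregs (log2 fold change 0.48, edgeR adjusted p = 0.00612), Sdhd rose by 0.52 (adjusted p = 0.00431) and Sdhc by 0.24 (adjusted p = 0.0441). The flavin-binding subunit Sdha did not pass (0.06, adjusted p = 0.495). The list's median was 0.17, and 6 passed as higher with scaling by library size alone.

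In mutant iTregs 3 of these 9 rose (1 to 5 with 1 library left out; 1 without mutant iTreg replicate 1 or WT iTreg replicate 1 or 2, 5 without mutant nTreg replicate 1) and 0 fell, among them Dld, the lipoamide dehydrogenase shared by the pyruvate and 2-oxoglutarate complexes (0.40, edgeR adjusted p = 0.00443), and Sucla2, a partner of Suclg1 (0.30, adjusted p = 0.0253). The difference between the genotype effects passed for 0 of the 9 subunits with edgeR (1 at an unadjusted p under 0.05, Sdhb) and for 0 with DESeq2, for 1 with scaling by library size alone and for 2 without mutant nTreg replicate 1. In WT iTregs 8 of the 9 were higher than in WT nTregs and 0 lower (median 0.45), where 33.7% of all tested genes were higher and 35.7% lower.

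Genes of pyruvate entry numbered 13, of which 12 were tested (Pdk4 was too low). In mutant nTregs 4 rose (2 without mutant nTreg replicate 1 or WT nTreg replicate 2 or 3, 1 without WT nTreg replicate 1), among them Pcx, which makes oxaloacetate from pyruvate (0.72, edgeR adjusted p = 0.0151), and Pdk3 (0.52, adjusted p = 0.00253), and 3 fell. Those that fell regulate the pyruvate dehydrogenase complex. Pdk1, a kinase that inhibits the complex, was at 68.3 ± 3.26 CPM in mutant nTregs and 117 ± 6.28 CPM in WT nTregs (log2 fold change -0.77, adjusted p = 0.000441). The activating phosphatases Pdp1 and Pdp2 fell by 0.41 and 0.37. The core subunit Pdha1 did not pass (-0.08, adjusted p = 0.398).

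In mutant iTregs 8 of these 12 rose and 1 fell. With 1 library left out 3 to 9 rose (3 without WT iTreg replicate 1, 4 without WT iTreg replicate 2 or mutant iTreg replicate 1, 5 without mutant iTreg replicate 2). The mitochondrial pyruvate carrier subunits Mpc1 and Mpc2 rose by 0.46 and 0.37 (edgeR adjusted p = 0.00624 and 0.00802), and the complex subunits Pdha1, Pdhb, Dlat and Pdhx by 0.20 to 0.32. The kinase Pdk2 was at 4.07 ± 0.92 CPM in mutant iTregs and 8.59 ± 0.33 CPM in WT iTregs (log2 fold change -1.08, adjusted p = 0.0025), while Pdk1 did not pass (-0.01, adjusted p = 0.969). With scaling by library size alone 5 of the 12 rose.

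Carriers and shuttle enzymes that link the matrix with the cytosol numbered 8, of which 7 were tested (Me3 was too low). In mutant nTregs 5 rose and 0 fell, with a median of 0.52: the citrate carrier Slc25a1 (0.52), the dicarboxylate carrier Slc25a10 (1.04), the oxoglutarate carrier Slc25a11 (0.23), the aspartate-glutamate carrier Slc25a13 (1.24) and the mitochondrial aspartate aminotransferase Got2 (0.67). Slc25a13 was at 16.2 ± 3.84 CPM in mutant nTregs and 6.84 ± 0.83 CPM in WT nTregs (edgeR adjusted p = 0.00032). In mutant iTregs 2 rose, Slc25a13 (0.87) and Got2 (0.39), and 1 rose without mutant iTreg replicate 1 or WT iTreg replicate 1 or 2. Of the cytosolic counterparts, 5 of 6 tested, 1 rose in mutant nTregs, Got1 (0.46), where 19.3% of all tested genes were higher. In mutant iTregs 1 rose, Mdh1 (0.29), where 14% of all tested genes were higher. Both counts are near these shares. The count in mutant nTregs was 0 without mutant nTreg replicate 1, without WT nTreg replicate 3 and with the compared libraries alone. That in mutant iTregs was 0 without mutant iTreg replicate 1 or 2 or WT iTreg replicate 1 or 2 and with libraries scaled by size only. Idh1, the cytosolic relative of Idh2, did not pass in either, at -0.14 in nTregs and 0.14 in iTregs.

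Glutamine feeds the cycle through 2-oxoglutarate. Of 4 genes of that entry, 1 rose in mutant nTregs, the glutaminase Gls2 (1.16 ± 0.43 CPM in mutant nTregs and 0.296 ± 0.104 CPM in WT nTregs, log2 fold change 1.96, edgeR adjusted p = 0.00086). In mutant iTregs 3 of the 4 rose, among them Gls2 (0.93) and the glutamate dehydrogenase Glud1 (0.28). With 1 library left out 1 to 3 rose (1 without WT iTreg replicate 1). By comparison 19.3% of all tested genes were higher in mutant nTregs and 14% in mutant iTregs. The list of 2-hydroxyglutarate removal held 2 genes. In mutant nTregs 0 of them rose and 1 fell, and in mutant iTregs 1 rose and 1 fell. D2hgdh, which clears D-2-hydroxyglutarate to 2-oxoglutarate, fell in both kinds of Treg, by 0.63 in nTregs (20.7 ± 3.05 CPM in mutant nTregs and 32.1 ± 2.25 CPM in WT nTregs, adjusted p = 0.00292) and by 0.54 in iTregs (13.6 ± 1.54 CPM in mutant iTregs and 19.8 ± 2.62 CPM in WT iTregs, adjusted p = 0.0118). The call of D2hgdh in iTregs was lost without WT iTreg replicate 1.

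**Figure D4:**
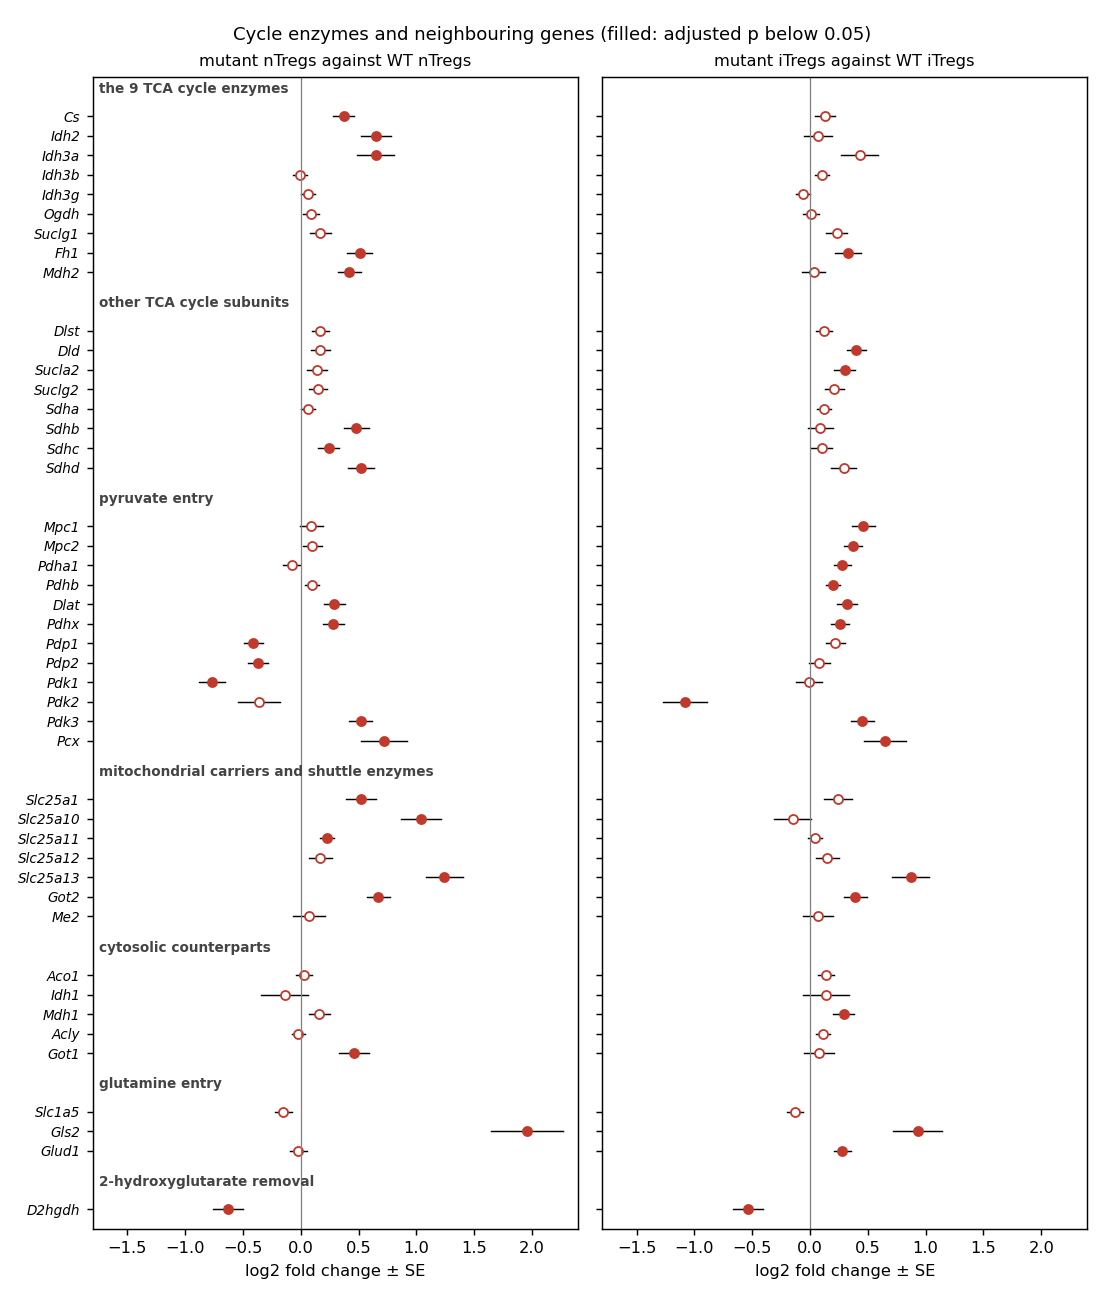
Fitted log2 fold change with its SE (horizontal axis) of the 9 enzymes and of tested genes from 6 neighbouring lists, in mutant against WT nTregs (left) and mutant against WT iTregs (right); filled points passed the test (edgeR adjusted p below 0.05). Carrier genes are filled in 5 of 7 rows on the left and 2 on the right, and pyruvate entry has 4 higher and 3 lower on the left and 8 higher and 1 lower on the right.

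Mitochondrial gene expression beyond the cycle was read from 2 further lists. Of the 13 protein-coding genes of the mitochondrial genome, 1 rose in mutant nTregs (mt-Nd2, 0.59, edgeR adjusted p = 0.00559) and 10 rose in mutant iTregs, with medians of -0.11 and 0.40. With scaling by library size alone 3 of the 13 passed as higher in mutant iTregs, and 6 with RLE. With 1 library left out the count in mutant iTregs ran from 1 (without WT iTreg replicate 1 or 2) and 2 (without mutant iTreg replicate 1 or 2) to 13 (without mutant iTreg replicate 4); it was 5 or 6 without a WT nTreg library. Of 82 tested mitochondrial ribosome genes, 36 rose and 1 fell in mutant nTregs (median 0.26), and 14 rose and 1 fell in mutant iTregs (median 0.14). Over all tested genes 19.3% were higher in mutant nTregs and 14% in mutant iTregs. With 1 library left out 19 to 42 rose in mutant nTregs, 19 without mutant nTreg replicate 1 and 22 without WT nTreg replicate 2. In mutant iTregs 1 to 31 rose, 1 without WT iTreg replicate 1, 2 without WT iTreg replicate 2, 4 to 9 without a mutant iTreg library and 31 without mutant nTreg replicate 1.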

How the data were processed

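The deposited files hold whole-number gene counts, 1 file per library, and were analysed as given. The authors counted, per the file headers, with featureCounts 1.5.2 on Ensembl release 87 of GRCm38, reverse-stranded, with multi-mapping reads counted at every alignment, so paralog values are uncertain. Per the submitters' processing notes, bcl2fastq 2.18.0.12, STAR 2.5.2b, Subread 1.5.2 and mm10 were used. Per the labels' protocols, libraries were TruSeq Stranded mRNA from NucleoSpin RNA. Of 49671 gene identifiers, 49326 matched a symbol. No exon of a member overlapped another gene on its strand.

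Genes were tested with edgeR 4.0.16 (R 4.3.3): filterByExpr (17977 genes), TMM scaling, 1 mean for each of 4 groups (8 residual degrees of freedom), quasi-likelihood F-test, two-sided, with Benjamini-Hochberg adjustment of p across the 17977 genes of each comparison. SEs come from the F statistic, and intervals are 95%. TPM uses the exon lengths in the files. Correlations use log2 CPM with a prior count of 2. The fit was tested on simulated data. Some genes of the lists are counted but not reported here by name.

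The members and lists were chosen with earlier results of these data known. All 9 members were named in every comparison, with Gclc, genes of the lists, and the 5 genes whose log2 CPM correlated best with the members' mean. Alternatives were each library left out in turn, DESeq2 1.42.0, a block for replicate number, a fit of the compared libraries only, scaling by RLE or by library size alone, and, for low genes, either no filter or at least 1 CPM in 3 libraries. Libraries differed within groups by 4.35 to 50.8 times the counting noise, so none was counted as a repeat of another. All libraries carry 1 sequencing run name in their headers.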

Additional observations from a re-analysis of the deposited data

Results flagged for a closer look

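The effect of the Gclc mutation on Idh2 differed between the 2 kinds of Treg by -0.58 on the log2 scale (effect in iTregs minus that in nTregs, ± 0.18 SE, edgeR adjusted p = 0.0482). The effect was 0.07 ± 0.12 in iTregs and 0.65 ± 0.13 in nTregs. All 3 mutant nTreg libraries lay above all WT nTreg libraries, and the mutant and WT iTreg libraries overlapped. It is listed because the difference itself passed its test. The test lies at the threshold, and most fits with 1 library left out did not pass.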

How the results depend on the processing

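The counts of members that passed were the same under all 19 alternatives in 2 comparisons: 5 higher and 0 lower in mutant against WT nTregs, and in WT iTregs against WT nTregs. In mutant against WT iTregs 1 member was higher, against 0 with library size alone, 0 with a 1 CPM filter and 2 with no filter, with the compared libraries alone or with DESeq2. The range was 0 to 3 with a library left out, with 3 without mutant nTreg replicate 1 and 2 without mutant nTreg replicate 2, and 0 members were lower throughout. Idh3a was the second gene gained. For the difference of effects 1 member was lower, against 0 with RLE scaling, 3 with library size alone, 2 with a 1 CPM filter or DESeq2, and 0 to 1 with a library left out. The gene gained was Mdh2, with Cs as well under library size alone. The 1 member lower without mutant iTreg replicate 4 was Mdh2, not Idh2. In mutant iTregs against mutant nTregs 4 were higher and 0 lower, against 2 higher and 3 lower with library size alone and 4 to 6 higher with a library left out.

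Labels give the same replicate numbers to libraries of different groups. They do not say whether a shared number means a shared mouse or batch. Deviations from the group means of same-numbered libraries correlated at -0.064 to 0.05, and those of differently numbered libraries at -0.097 to 0.093. Taken from means of 3 libraries, these correlations cannot decide whether the numbers pair the samples, so both fits are given. With the number as a replicate block, 0 members passed as higher in mutant against WT iTregs (Fh1 0.38 ± 0.12, adjusted p = 0.06) and 0 as lower for the difference (Idh2 -0.57 ± 0.18, adjusted p = 0.0837), and the block changed no other count of members. With the block 3 of 13 mitochondrial genome genes and 2 of 15 proliferation genes passed as higher in mutant iTregs, against 10 and 7. Over all genes it gave 1677 higher and 1359 lower in mutant against WT iTregs, against 2517 and 2044, and 650 and 821 for the difference, against 1101 and 1291.

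Of 846 recomputed member values 764 kept direction and side of the threshold. With direction kept, 26 lost their call and 16 gained one, and 40 values changed sign. Among those 40, 1 passed the test: Ogdh in mutant iTregs against mutant nTregs, at -0.18 with library size alone (adjusted p = 0.0118). Ogdh was there at -0.02 with RLE, DESeq2 or the compared libraries alone, -0.04 with the 1 CPM filter and -0.02 to 0.07 with a library left out. In mutant against WT iTregs Ogdh was at 0.00 with RLE or DESeq2, -0.08 with library size alone, -0.04 with the 1 CPM filter, -0.03 with the compared libraries alone and -0.02 to 0.05 with a library left out. Mdh2 was at -0.06, -0.02 and -0.01 under the same 3 settings and at -0.05 to 0.08. Idh2 was at -0.03 with library size alone and -0.01 to 0.14 with a library left out. Under library size alone Mdh2 was at -0.12 and Idh3b at -0.06 in mutant iTregs against mutant nTregs. Idh3b was then at 0.03 in mutant against WT nTregs, and -0.03 for the difference, where Suclg1 was at -0.07. In WT iTregs against WT nTregs it put Idh3b at -0.03 and Idh3g at -0.02, and Idh3b was at -0.01 with RLE or DESeq2. With a library left out, values that changed sign ranged from -0.07 to 0.01 for Idh3b in mutant against WT nTregs, -0.02 to 0.05 for Idh3b and 0.00 to 0.06 for Idh3g in WT iTregs against WT nTregs. They ranged from -0.37 to 0.08 for Idh3a in the difference, and from -0.10 to 0.08 for Suclg1 and -0.01 to 0.20 for Mdh2 in mutant iTregs against mutant nTregs. The cause was not tested.

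Scaling by library size alone moved the share of calls that were higher to 65.4% from 55.4% with TMM in mutant against WT nTregs, to 35.5% from 55.2% in mutant against WT iTregs, to 17.8% from 46.0% for the difference and to 36.0% from 48.7% in mutant iTregs against mutant nTregs. The median of all genes moved to -0.14 for the difference. It left 1606 genes higher in mutant against WT iTregs, and 518 higher and 2393 lower for the difference. Leaving out a library gave 834 to 3650 higher and 972 to 2734 lower in mutant against WT iTregs, and 515 to 1838 and 622 to 1528 for the difference. In mutant against WT iTregs the lowest counts, 834 and 972, came without WT iTreg replicate 1. With 3 libraries a group, an exact permutation test cannot go below p = 0.1.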
